A study of Mus musculus with 474 samples.

Results

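Dbp is a transcription factor of the PAR bZIP family whose mRNA rises and falls every day under the control of the circadian clock, and the animals described here were chosen by its measured level, from the tails of a population. Skeletal muscle RNA had been sequenced once from each of many Diversity Outbred mice, an outbred stock in which every animal carries its own mixture of inbred founder genomes. All animals ate a high-fat, high-sugar diet, given as 45 percent fat in the labels, and the study's methods place the harvest at 22 weeks of age. The titles split the animals into 10 groups of 45 to 50, by sex and outbred generation, for which the numbers 17, 18, 19, 21 and 23 were taken. Within each group the 5 libraries with the highest Dbp value in the deposited variance-stabilised matrix were taken as Dbp-high and the 5 with the lowest as Dbp-low. The values of this matrix (VST) are on a log2-like scale that compresses low levels. This gave 50 Dbp-high and 50 Dbp-low animals, 21.1% of all sequenced, in equal numbers from every group, and left 35 to 40 animals of each group (78.9% in all), called middle animals here, in neither class. Founder genotypes were not used here. The time of day at which each muscle was taken was not given in the sources used here, so the classes are named for their Dbp level and not for a time, and an early or late clock cannot be told apart from a different hour of collection, a larger daily swing or an inherited difference.

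The mammalian clock is a loop of transcription. BMAL1 (encoded by Arntl) pairs with CLOCK or NPAS2, binds E-box sequences and drives the genes of its own repressors, the PER and CRY proteins, together with Nr1d1, Nr1d2 and Dbp. REV-ERB proteins (from Nr1d1 and Nr1d2) and ROR proteins compete at RORE sequences, through which REV-ERB represses Arntl, Npas2, Clock, Cry1 and Nfil3, while DBP, TEF and HLF activate and NFIL3 represses genes with D-box sequences. In muscle this loop is known to time genes of fuel choice, among them Pdk4, and of sarcomere upkeep, among them Tcap.

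Dbp (chr7:45705088-45710203, GRCm38, plus strand) had a count of 847 to 5104 (median 2030) in the 50 high libraries and of as few as 63 in the low ones. In CPM, counts per 1000000 of the TMM-scaled library total, the level was 12.2 to 57.7 with a median of 23.9 in the high class and 1.11 to 3.97 with a median of 2.13 in the low class, a ratio of medians of 11.2. In VST, the scale of the ranking, the class medians were 10.8 and 8.06, a smaller step than in log2 CPM. The animals were chosen by Dbp, so its values carry no test. At the high edge, the last animal inside exceeded the first outside by 0.397 VST units in the females of generation 18 and by 0.000796 in the males of generation 21, the widest and narrowest of the 10 gaps. At the low edge the gaps ran from 0.00101 to 0.16. Because ranks were taken within groups, 37 middle libraries had more Dbp than the lowest high library of any group, and 79 had less than the highest low library.

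**Figure D1:**
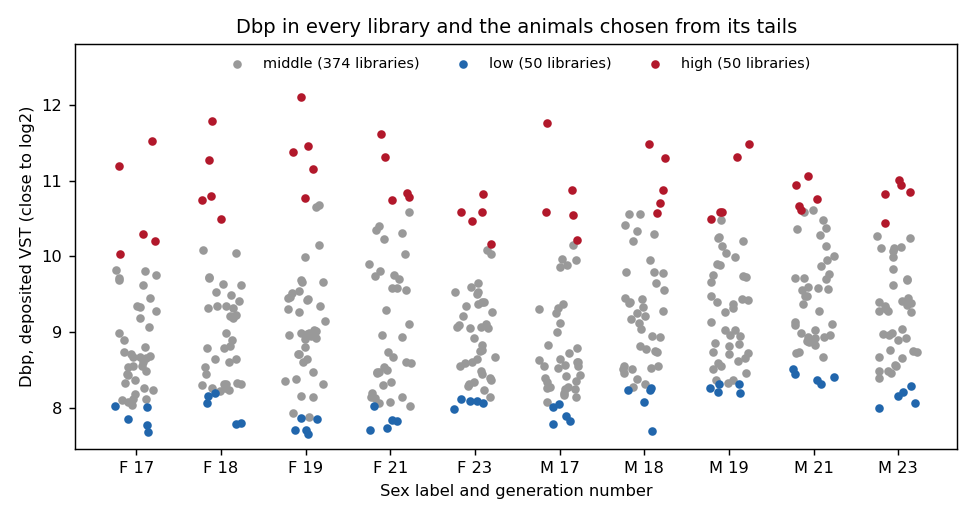
Dbp in every library by sex label and generation number (VST, a log2-like scale that compresses low levels), with the 5 highest of each group in red, the 5 lowest in blue and the middle animals in grey. The classes of a group sit at opposite ends of the spread of points, and the group medians lie between 8.59 and 9.48.

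Depth and composition were compared first. The total count per library was 35.9 to 165.7 M (M stands for 1000000 counts) over all libraries, and its mean in the high class was 4.39 M above that in the low class (permutation test within groups, 2-sided, p = 0.142). The share of counts from 15 mitochondrially encoded genes was 10.3 ± 1.86% (SD, n = 50) in the high class and 10.9 ± 2.41% in the low class (permutation test, 2-sided, p = 0.14), and both p-values were 0.142 after adjustment over these 2 tests. Library numbers fell into 5 blocks, which may stand for preparation plates, and each block held 7 to 13 libraries of either class. RNA of sex-linked genes went against the label in 5 libraries of the series, 1 of them in a class. A female of generation 17 and a male of generation 19 among these 5 stand in each other's place in the column order of the deposited tables, as do 2 further males of generation 19, so these 4 columns may have been exchanged. They were matched by name, all 4 are middle animals, and the Dbp value of each lies within the middle range of either group. Muscle markers were abundant in every library of both classes: the 10 listed skeletal muscle genes summed to at least 123712 CPM.

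The question put to the data was which other genes differ between muscles with much and with little Dbp. Of 19246 genes tested besides Dbp, 1289 differed, 3.21% of all being higher in the high class and 3.49% lower, by edgeR's quasi-likelihood test with group as covariate and Benjamini-Hochberg adjustment. Differences were small for most of them, with a median size of 0.22 on the log2 scale, and 29 higher and 92 lower genes differed by at least 1.5-fold. Higher genes made up 47.9% of the calls, and 27.4% when libraries were scaled by total count alone (1.68% of all genes higher and 4.44% lower), a change that moved the median difference of all genes from -0.0077 to -0.026. Leaving out 1 library was tried in the females of generation 19 only: without each of their 10 class libraries in turn, 2.88% to 3.38% of genes were higher and 3.10% to 3.58% lower. Without all 10 of them, the shares fell to 1.72% and 2.08%, and without each of the other groups they were 2.34% to 3.15% and 2.57% to 3.50%.

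Most genes of the clock itself differed between the classes. Of the 29 clock genes listed besides Dbp, 15 rose and 5 fell in Dbp-high animals, 69% of them, against 6.7% of all genes tested. In 18 of the 20 the mean log2 CPM of the high animals lay on the same side of the low animals in all 10 sex-by-generation groups, and in the other 2, Nr1d1 and Csnk1e, in 9 groups. The lists were drawn up with earlier results of these data known, so the counts describe the genes and are no independent evidence of their direction.

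Of the 6 listed activators of the clock, 3 (Arntl, Npas2 and Clock) were lower in Dbp-high muscle and 0 higher, against 3.49% and 3.21% of all genes. Arntl (chr7:113207465-113314126), the obligate partner of the activator pair, ran from 28.1 to 59.9 CPM (median 39.3) in the low class and from 4.98 to 35.6 CPM (median 15.5) in the high class. The classes hardly overlapped, as 49 of the 50 high libraries lay below every low library. The log2 difference, high minus low, was -1.46 ± 0.09 (adjusted p = 2.01e-23), a 2.75-fold higher fitted level in the low class. Npas2, which can stand in for CLOCK as the partner, was at 2.44 to 6.35 CPM (median 3.71) in the low class and at 0.382 to 2.96 CPM (median 1.42) in the high class, and 44 high libraries lay below every low one. Its difference was -1.46 ± 0.12 (adjusted p = 7.78e-17). Clock moved the same way by less, with a median of 64.4 CPM in the low class and 46.9 CPM in the high class and a difference of -0.55 ± 0.06 (adjusted p = 1.37e-11). Within the 5 library blocks taken alone the Arntl difference was between -2.04 and -1.05. Rora and Rorb, which encode activators at RORE sequences, did not pass the test: the differences were 0.03 ± 0.06 (adjusted p = 0.838) for Rora and 0.00 ± 0.17 for Rorb, which was close to undetected, at medians of 0.155 and 0.153 CPM.

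RefSeq promoter windows (GRCm38.p6, from 250 bases before to 50 after a start) were found for 36 of the 45 clock and named genes, Dbp included. They were searched on both strands for the E-box CACGTG, the D-box TTATGTAA and the RORE core TNGGTCA, which 7.15%, 0.935% and 11% of all 32817 windows hold. The RORE core ends in the CA that opens the E-box, so these matches can overlap, and they do in the window of Wsb1, a gene described further on. The 4 windows below were chosen because they hold such letters and belong to clock genes of either direction and to Coq10b, the non-clock gene with the largest rise among those the naming rule allows, and the matches stand in capitals.
Arntl, chr7:113207215-113207514 (plus strand): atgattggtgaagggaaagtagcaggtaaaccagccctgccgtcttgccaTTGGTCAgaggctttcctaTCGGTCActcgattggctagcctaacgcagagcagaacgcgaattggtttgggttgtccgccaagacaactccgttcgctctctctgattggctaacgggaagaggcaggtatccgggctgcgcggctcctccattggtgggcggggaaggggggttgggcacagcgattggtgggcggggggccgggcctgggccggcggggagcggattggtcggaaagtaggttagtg
Per3, chr4:151044616-151044915 (minus strand): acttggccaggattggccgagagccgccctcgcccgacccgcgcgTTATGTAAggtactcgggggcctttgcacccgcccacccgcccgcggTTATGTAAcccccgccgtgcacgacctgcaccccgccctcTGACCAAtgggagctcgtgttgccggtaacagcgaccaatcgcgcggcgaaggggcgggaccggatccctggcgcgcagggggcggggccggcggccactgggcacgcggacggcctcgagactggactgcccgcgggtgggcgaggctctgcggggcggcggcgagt
Ciart, chr3:95882179-95882478 (minus strand): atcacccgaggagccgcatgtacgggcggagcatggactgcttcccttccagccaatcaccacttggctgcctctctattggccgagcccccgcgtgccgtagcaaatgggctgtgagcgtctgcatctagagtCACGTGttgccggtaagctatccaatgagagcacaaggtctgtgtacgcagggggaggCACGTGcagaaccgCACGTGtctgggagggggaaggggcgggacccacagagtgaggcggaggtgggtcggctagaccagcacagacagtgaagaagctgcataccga
Coq10b, chr1:55052520-55052819 (plus strand): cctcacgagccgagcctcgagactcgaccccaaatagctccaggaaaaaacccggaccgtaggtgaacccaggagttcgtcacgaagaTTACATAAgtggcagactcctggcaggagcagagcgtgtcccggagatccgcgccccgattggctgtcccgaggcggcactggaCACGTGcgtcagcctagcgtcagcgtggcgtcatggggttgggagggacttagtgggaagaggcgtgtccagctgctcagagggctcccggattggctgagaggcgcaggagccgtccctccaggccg
With N taken as any base, this Arntl window held 2 RORE cores, the farther beginning 200 bases before the start. The other Arntl window, chr7:113207261-113207560, held these 2 and 1 more, beginning 30 bases after its start. Per3 held 2 D-boxes and, nearer its start, 1 RORE core. Ciart held 3 E-boxes, the nearest 44 and 58 bases before the start, and Coq10b held a D-box and, 78 bases before the start, an E-box. Among the clock genes that rose, 4 of the 11 with a window held an E-box in at least 1 of their windows, 1 a D-box and 3 a RORE core, and of the 5 that fell 1 held an E-box, 0 a D-box and 2 a RORE core. Of the 7 clock genes with a window that were not called, 0 held an E-box, 1 a D-box and 0 a RORE core. Per2 had no window. The windows of Dbp, Npas2, Nr1d1 and Nr1d2, among others, held none of the 3, which says only that these letters are not in those 300 bases of each.

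Of the 10 repressor genes, 9 rose and Cry1 fell, against 3.21% and 3.49% of all genes. Per3 (chr4:151003652-151044665), a period gene, was at 3.43 to 13.1 CPM (median 8.65) in the low class and at 12.9 to 43.9 CPM (median 22.7) in the high class, with 49 of 50 high libraries above every low one, and the difference was 1.61 ± 0.09 (adjusted p = 4.36e-27). Per2 (chr1:91415982-91459324), whose protein carries much of the negative feedback, was at 1.82 to 13.5 CPM (median 6.65) and 8.69 to 40.3 CPM (median 20.5) in the low and high classes. For this gene 41 high libraries exceeded all low ones, and the difference was 1.63 ± 0.13 (adjusted p = 8.50e-19). Ciart, a repressor of the CLOCK and BMAL1 pair also known as Chrono, overlapped more, at 0.607 to 7.88 CPM (median 2.03) against 1.39 to 13.98 CPM (median 6.53), with a difference of 1.62 ± 0.14 (adjusted p = 9.15e-16). These 3 genes thus stood about as far up in Dbp-high muscle, at 3.04, 3.09 and 3.08-fold, as Arntl and Npas2 stood down.

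The other repressors differed by less. Nr1d2, which encodes REV-ERB beta, was at 52.5 to 139.6 CPM (median 74.9) in the low and 81.2 to 210.95 CPM (median 130.1) in the high class, and all 50 high libraries lay above the median of the low ones although the ranges overlapped (difference 0.78 ± 0.05, adjusted p = 4.97e-22). Nr1d1, which encodes REV-ERB alpha and is often used as a phase marker beside Dbp and Per2, differed by 0.40 ± 0.10 (adjusted p = 0.00374), and 8 high libraries lay below the low median. Its call was lost when scores for adipocyte, slow-fibre, macrophage, Schwann and erythroid genes were added to the model (0.31, adjusted p = 0.0563). The paralogue pair Bhlhe40 and Bhlhe41 (DEC1 and DEC2), which compete for E-boxes, rose by 0.57 ± 0.08 (adjusted p = 1.52e-07) and 0.62 ± 0.09 (adjusted p = 4.81e-08). Per1, a period gene that glucocorticoids also induce, rose by 0.53 ± 0.11 (adjusted p = 3.11e-04), and Cry2 rose by 0.42 ± 0.06 (adjusted p = 1.33e-07). Cry1, the cryptochrome that peaks late in the cycle and carries RORE elements, was the exception. Its level was 11.6 to 24.8 CPM (median 17.3) in the low class and 8.33 to 15.8 CPM (median 12.7) in the high class, all 50 high libraries lay below the low median, and the difference was -0.50 ± 0.04 (adjusted p = 7.78e-17).

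**Figure D2:**
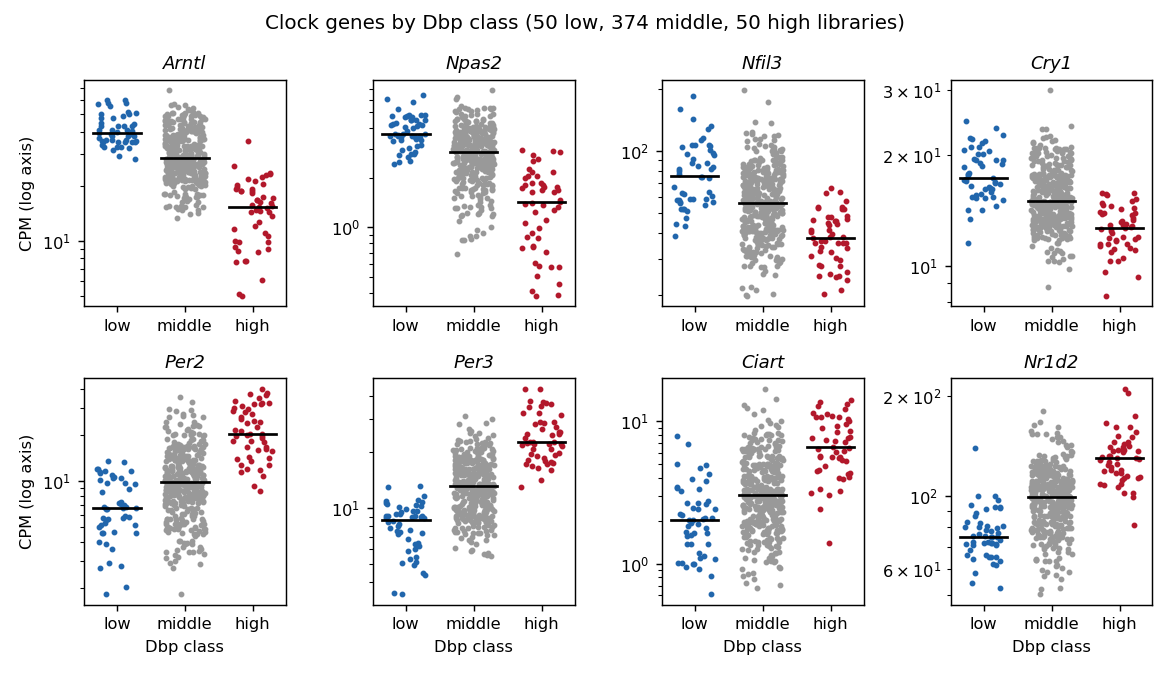
Level of 8 clock genes in each library (CPM, log axis) by Dbp class, with black lines at the class medians. Arntl, Npas2, Nfil3 and Cry1 step down from low to high and Per2, Per3, Ciart and Nr1d2 step up, with the middle libraries between, for Arntl at a median of 28.5 CPM.

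The D-box factors moved apart. Tef and Hlf, the PAR bZIP paralogues of Dbp, rose together with it: Tef from a median of 171.4 to 236.1 CPM, a difference of 0.48 ± 0.04 (adjusted p = 6.61e-19), and Hlf from 9.59 to 16.5 CPM, a difference of 0.71 ± 0.08 (adjusted p = 1.37e-11). Nfil3, which encodes the repressor at the same D-box, was at 38.5 to 183.6 CPM (median 75.7) in the low class and at 20.1 to 66.3 CPM (median 37.9) in the high class, so 27 high libraries lay below every low one, and it fell by 1.05 ± 0.09 on the log2 scale (adjusted p = 1.08e-15).

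Among the kinases, ubiquitin ligases and other modifiers of clock proteins, 4 of 10 rose and 0 fell, against 3.21% and 3.49% of all genes. Usp2, a deubiquitinase that acts on clock proteins, rose most, by 0.55 ± 0.06 (adjusted p = 5.01e-13), from a median of 125.7 to 189.2 CPM. Btrc, a subunit of the ligase that marks PER for breakdown, rose by 0.22 ± 0.03 (adjusted p = 6.10e-09). The casein kinases Csnk1d and Csnk1e, which phosphorylate PER, rose by 0.14 ± 0.02 (adjusted p = 5.98e-06) and 0.12 ± 0.03 (adjusted p = 0.0125), about 1.1-fold each. Csnk1e lost its call in 4 of 33 settings (all those tried other than single sexes and blocks), as counted by edgeR or the other tool of the setting, and the losses given for other genes are over the same 33. Csnk2a1, Gsk3b, Fbxl21, Fbxw11 and Timeless were among the 6 that did not pass the test, with differences from -0.38 for Fbxl21, which was scarcely detected, to 0.02.

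**Figure D3:**
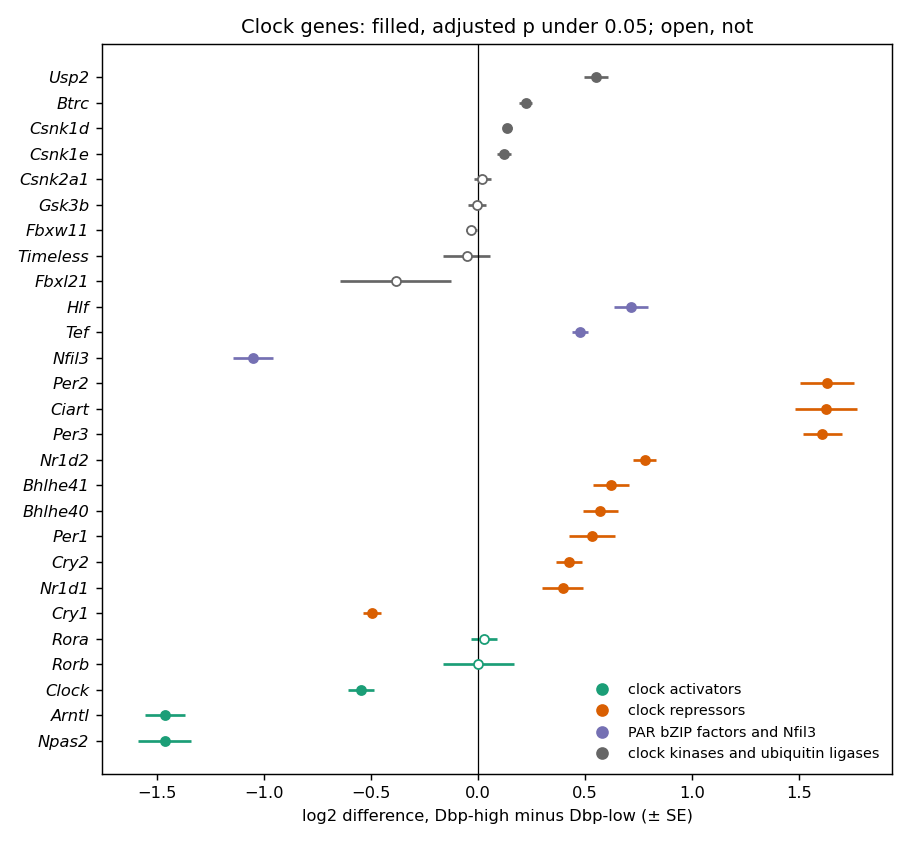
The log2 difference, Dbp-high minus Dbp-low, with its standard error for 27 clock genes, filled where the adjusted p was under 0.05. Repressors other than Cry1 lie right of 0, up to 1.63 for Per2, and Arntl and Npas2 lie farthest left at -1.46.

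Overlaps were taken from gene starts and ends, introns included, on either strand, so an overlapping pair need not share transcript sequence. Where a pair does, its reads may not be told apart, since the use of strand in counting was not stated. Per3 overlaps Camta1, Nr1d1 overlaps Thra and Ciart overlaps C920021L13Rik, and the partner differed by 0.02 ± 0.05, 0.05 ± 0.04 and 0.13 ± 0.12, none past the test. Cry2 overlaps D930015M05Rik, which rose by 0.57 ± 0.17 at a mean of 0.268 CPM. Coq10b overlaps Gm17971, at a mean of 0.880 CPM, which rose by 1.37 ± 0.17, so that the reads behind both changes may not be separable. Whether these genes share transcript sequence was not checked. Among the other named genes, the overlapping Ube2n-ps1 rose by 0.13 ± 0.04 where Clock fell, 4932442E05Rik fell by 0.64 ± 0.14 beside Dyrk2, and Gm17034 beside Hk2 and Gm32569 beside Dpt rose by 0.54 ± 0.16 and 0.56 ± 0.19.

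The middle animals gave a second look at the same genes in libraries that the ranking did not place in a tail. There, each gene was regressed on the Dbp VST with group as covariate, and the slope is the log2 change per VST unit of Dbp. Of 18792 genes, 739 rose (3.93%) and 1096 fell (5.83%) with Dbp. The 2 lists of rising genes shared 280 genes, which is 45.3% of those higher in the high class and 37.9% of those rising in the middle. The lists of falling genes shared 47.4% and 29% in the same order, and 0 genes were called in opposite directions. The sign of the slope was that of the high-low difference for 96% of the higher genes and for 96.7% of the lower genes tested in both. All clock genes that had been called in the tails were called in the same direction among these animals except Csnk1e (slope 0.01, adjusted p = 0.647), and 0 of the other 9 were. Arntl had a slope of -0.53 (adjusted p = 5.62e-57), Per3 of 0.54 (adjusted p = 1.65e-49), Ciart of 0.67 (adjusted p = 2.96e-22), Per2 of 0.45 (adjusted p = 8.93e-13) and Nr1d1 of 0.23 (adjusted p = 3.84e-05).

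**Figure D4:**
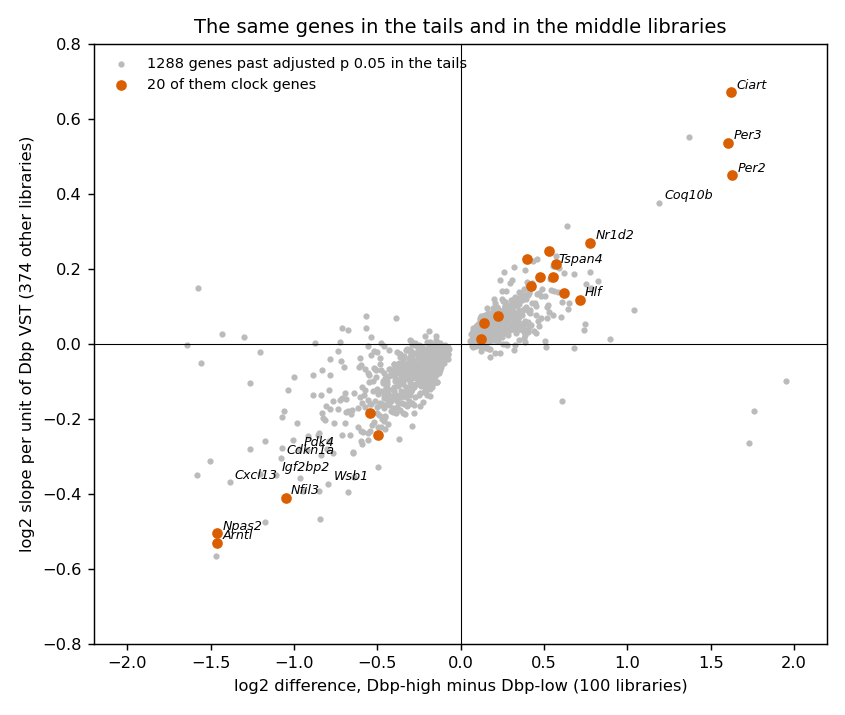
Genes called between Dbp-high and Dbp-low animals (1288 that were tested in both sets), with the log2 difference in the tails on the horizontal axis and the log2 slope per unit of Dbp VST in the middle animals on the vertical axis. Clock genes (orange) lie toward both corners, Per3 at 1.61 and 0.54 and Arntl at -1.46 and -0.53, and 1 gene lies outside the axes.

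Likeness to Dbp was then measured in the middle libraries (35 to 40 from each of 10 groups) as Pearson's r of VST residuals after group, as a description, since libraries share depth and composition across genes. The genes most alike over all 18792 were Per3 (r = 0.69, Spearman's rho = 0.69), Nr1d2 (0.55, 0.59), Tef (0.52, 0.52), Ciart (0.51, 0.52) and Tspan4 (0.50, 0.50), the last a tetraspanin outside the clock. The most opposite were Arntl (-0.73, -0.74), Wsb1 (-0.62, -0.65), Npas2 (-0.59, -0.60), Cry1 (-0.57, -0.60) and Slc16a9 (-0.55, -0.56). Wsb1 encodes a ubiquitin ligase subunit and Slc16a9 a monocarboxylate transporter, and neither belongs to the core loop. In the tails Wsb1 was at 11.4 to 27.9 CPM (median 18.6) in the low class and 5.67 to 15.1 CPM (median 10.2) in the high class, with 32 high libraries under every low one (difference -0.80 ± 0.06, adjusted p = 3.07e-21). Slc16a9 fell from a median of 14.7 to 6.93 CPM (difference -0.95 ± 0.07, adjusted p = 3.98e-19), and Tspan4 rose from 4.12 to 5.91 CPM (difference 0.55 ± 0.06, adjusted p = 6.70e-11).

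The clock genes did not all track one another equally among the middle animals. Arntl ran against Per3 (r = -0.76, Spearman's rho = -0.78) and along with Npas2 (r = 0.74, rho = 0.74) and Cry1 (r = 0.73, rho = 0.74). Nr1d1 ran against Nfil3 (r = -0.52, rho = -0.51) and Per2 (r = -0.46, rho = -0.43), stood near 0 with Arntl (r = -0.05, rho = -0.06), and had r = 0.26 with Dbp (rho = 0.30). Thus Per2 and Nr1d1, both higher in Dbp-high animals, ran against each other among animals of middling Dbp. Per1 went most closely with Usp2 (r = 0.71, rho = 0.73) and Ciart (r = 0.64, rho = 0.66). Leaving out the 2 libraries farthest from the median of the first gene changed r by at most 0.051 in the pairs computed among 19 genes, which share the same libraries.

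Beyond the clock, Coq10b showed the largest rise among called genes with a mean of at least 1 CPM in a class, the same sign in at least 9 of 10 groups and no provisional symbol (Gm, Rik or -ps), which leaves out Gm17971. Coq10b encodes a protein needed for coenzyme Q function in the mitochondrion and is rhythmic in many tissues. Its level was 3.62 to 25.98 CPM (median 8.89) in the low class and 7.49 to 44.5 CPM (median 19.6) in the high class, and 49 of 50 high libraries lay above the low median (difference 1.19 ± 0.10, adjusted p = 1.07e-16). Of 15 genes listed as rhythmic in many tissues, 5 were higher and 2 lower (3.21% and 3.49% of all genes), and 2 rose and 2 fell with Dbp in the middle animals (3.93% and 5.83% of all genes there), with a median difference of 0.04 against -0.0077 for all genes. The cold-induced RNA-binding proteins Cirbp and Rbm3 rose by 0.38 ± 0.06 (adjusted p = 7.94e-06) and 0.28 ± 0.08 (adjusted p = 0.0209), the latter with its call lost in 6 settings, and the cell-cycle kinase Wee1, a known E-box gene, rose by 0.31 ± 0.08 (adjusted p = 0.00473). Cdkn1a, which encodes the cell-cycle inhibitor p21, went down. It was at 20.6 to 161.96 CPM (median 51.7) in the low and 9.03 to 58.2 CPM (median 26.3) in the high class, all but 1 high library lay below the low median, and the difference was -1.08 ± 0.12 (adjusted p = 2.63e-11). Nampt, the rate-limiting enzyme of NAD salvage and a clock target in liver, did not pass the test (0.02 ± 0.05, adjusted p = 0.889).

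Of 16 muscle genes tied to the clock, 4 rose and 6 fell, against 3.21% and 3.49% of all genes, and in the middle animals 3 rose and 6 fell (3.93% and 5.83% of all genes there). Tcap, which encodes telethonin of the sarcomeric Z-disc, rose from a median of 854 to 1209.9 CPM, with 27 high libraries above every low one (difference 0.54 ± 0.06, adjusted p = 1.59e-10). Mylk4, a myosin light chain kinase of muscle, was at 293.9 to 2058 CPM (median 1049) in the low class and 836 to 2620.0 CPM (median 1619.8) in the high class (difference 0.75 ± 0.10, adjusted p = 7.33e-09). Pdp1 rose by 0.50 ± 0.07 (adjusted p = 3.17e-07), while Pdk4 fell. Both act on the same enzyme in opposite ways, since the phosphatase Pdp1 turns pyruvate dehydrogenase on and the kinase Pdk4 turns it off. Pdk4 was at 457.2 to 3868 CPM (median 1813) in the low class and 152.4 to 2011 CPM (median 879.7) in the high class, with 49 high libraries below the low median and a difference of -0.97 ± 0.13 (adjusted p = 6.96e-09). Dyrk2, a kinase, differed by -0.60 ± 0.07 (adjusted p = 1.73e-09) and Ppp1r3c, a glycogen-targeting subunit of protein phosphatase, by -0.47 ± 0.10 (adjusted p = 7.15e-04), each as a log2 difference. Myod1, Slc2a4 and Klf15 were among the 6 that did not pass, with differences of -0.12, 0.04 and -0.05.

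Of 16 genes of fatty acid use and fasting, 7 fell and 0 rose, against 3.49% and 3.21% of all genes, with a median difference of -0.26. In the middle animals 4 fell and 0 rose, against 5.83% and 3.93% of all genes there. The 9 adipocyte genes, of which 0 passed, had a median difference of -0.31, and their part alone in this result was not tested. In the model with cell-type scores, an adipocyte score among them, Pdk4, Angptl4, Lpin1 and Cd36 kept their calls. Angptl4, an inhibitor of lipoprotein lipase that fasting and fatty acids induce, was at 3.76 to 33.4 CPM (median 13.7) in the low class and at 1.30 to 26.3 CPM (median 6.38) in the high class (difference -1.07 ± 0.15, adjusted p = 7.12e-08). Pdk4 belongs to this list as well. Lpin1, a phosphatidate phosphatase and coactivator, fell from 472.3 to 388.7 CPM at the median (-0.33 ± 0.05, adjusted p = 5.99e-07), and the fatty acid receptor Cd36 differed by -0.27 ± 0.06 (adjusted p = 0.00211). Acot2, Foxo1 and Ucp3 were the other 3, at -0.33 ± 0.09 (adjusted p = 0.0166), -0.42 ± 0.13 (adjusted p = 0.0293) and -0.35 ± 0.11 (adjusted p = 0.0362). Their calls were lost in 3, 6 and 11 of the 33 settings in that order, and none of the 3 was called in the middle animals. The core oxidation enzymes Cpt1b, Acadm and Hadha did not pass the test, with differences of 0.02, -0.06 and -0.02. Of 12 lipogenic genes only Gpam passed, a share near the 6.7% of all genes called. Gpam differed by 0.12 ± 0.04 (adjusted p = 0.0347) and lost its call in 8 settings.

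Genes of muscle atrophy and autophagy were lower in 5 of 12 and higher in 1, against 3.49% and 3.21% of all genes, and in the middle animals 2 fell and 0 rose, against 5.83% and 3.93% of all genes there. The muscle ubiquitin ligases Trim63 (MuRF1) and Fbxo32 (atrogin-1) led. Trim63 was at 143.97 to 1185 CPM (median 279.8) in the low class and at 125.6 to 542.8 CPM (median 210.5) in the high class, so that most of the high class range lay within that of the low class while the upper end was held by low libraries (difference -0.69 ± 0.12, adjusted p = 3.06e-05). Fbxo32 went from a median of 578.9 to 411.3 CPM (-0.56 ± 0.10, adjusted p = 8.32e-05). Sesn1 and Gabarapl1, of stress signalling and of autophagosomes, were at -0.38 ± 0.08 (adjusted p = 8.99e-04) and -0.20 ± 0.07 (adjusted p = 0.0452), Foxo1 is given above, and the autophagy receptor Sqstm1 rose by 0.10 ± 0.03 (adjusted p = 0.0497). Gabarapl1 lost its call in 14 settings, Foxo1 in 6 and Sqstm1 in 19. Glucocorticoid-responsive genes were split, with 2 of 15 higher (Per1 and Dusp1) and 4 lower (Cdkn1a, Fkbp5, Pik3r1 and Zbtb16), against 3.21% and 3.49% of all genes, while 1 rose and 4 fell in the middle animals (3.93% and 5.83% of all genes there). Dusp1 lost its call in 4 settings and Zbtb16 in 1. Fkbp5, a chaperone of the receptor, fell from a median of 108.7 to 62.3 CPM (-0.66 ± 0.13, adjusted p = 3.86e-04), and Tsc22d3, Sgk1 and Klf9 did not pass, at 0.04, 0.09 and 0.09. Of 14 insulin and glucose uptake genes 3 were called, against 6.7% of all genes: Hk2 at 0.17 ± 0.05 (adjusted p = 0.0211) and Pygm at 0.13 ± 0.04 (adjusted p = 0.0193) above 0, and Pik3r1 at -0.33 ± 0.07 (adjusted p = 0.00128). Hk2 and Pygm each lost the call in 4 settings, and in the middle animals 0 of the 14 rose and 2 fell, with slopes of 0.0070 (adjusted p = 0.905) for Hk2 and 0.04 (adjusted p = 0.0584) for Pygm. Nr4a1 and Ier3 were the 2 of 15 immediate-early genes that rose, by 0.36 ± 0.11 (adjusted p = 0.0239) and 0.33 ± 0.09 (adjusted p = 0.0199), against 3.21% of all genes. Both lost the call in 6 settings, and Ier3 had a slope of -0.0025 (adjusted p = 0.982) in the middle animals. Among 13 heat shock chaperones Hsph1 alone passed, at -0.22 ± 0.07 (adjusted p = 0.0447), a share near the 6.7% of all genes called, and it lost its call in 17 settings. In the middle animals 3 of the 13 fell, Hsph1 among them, and 0 rose, against 5.83% and 3.93% of all genes there.

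**Figure D5:**
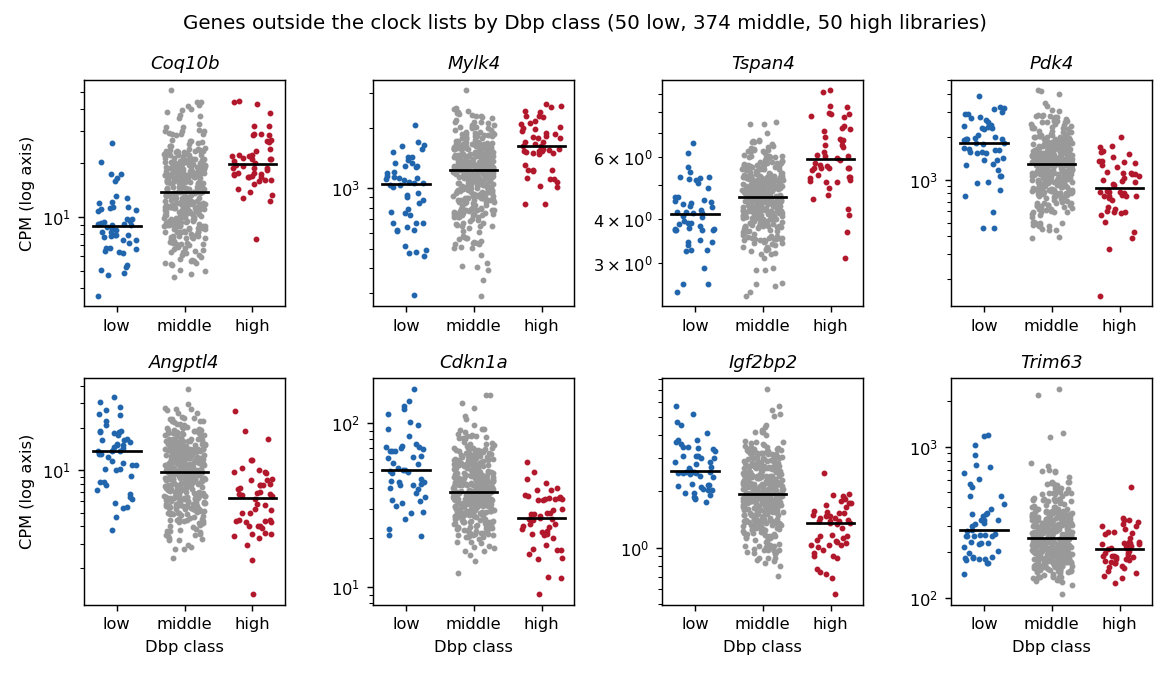
Level of 8 genes outside the clock lists in each library (CPM, log axis) by Dbp class, with black lines at the class medians. Coq10b, Mylk4 and Tspan4 lie higher in the high class and Pdk4, Angptl4, Cdkn1a, Igf2bp2 and Trim63 lower, for Pdk4 with medians of 1813 and 880 CPM.

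Further genes among the 10 largest changes in each direction, under the same limits, had various roles. Igf2bp2, an mRNA-binding protein of muscle progenitors, was at 1.75 to 5.70 CPM (median 2.58) in the low class and at 0.561 to 2.49 CPM (median 1.35) in the high class. This separated the classes almost as well as Npas2 did, as 43 high libraries lay below every low one (difference -1.11 ± 0.09, adjusted p = 9.63e-19). Rgs2, a brake on G protein signalling, fell from a median of 9.85 to 5.10 CPM (-0.96 ± 0.12, adjusted p = 2.51e-09). The secreted lipocalin Lcn2 and the chemokine Cxcl13, both genes of inflammation, were at class medians under 1 CPM and differed by -0.999 ± 0.21 (adjusted p = 6.89e-04) and -1.39 ± 0.34 (adjusted p = 0.00493), and Cxcl13 lost its call with the cell-type scores (-0.68, adjusted p = 0.104). On the rising side stood Foxo6, a forkhead factor, at 0.64 ± 0.12 (adjusted p = 1.72e-04), and Col9a1, a collagen chain of cartilage, at 0.75 ± 0.20 (adjusted p = 0.0103). Col9a1 had 18 high libraries below the low median, lost its call with the cell-type scores (0.58, adjusted p = 0.0696) and was at -0.31 in the fifth library block alone. None of Lcn2, Cxcl13, Foxo6 and Col9a1 was called in the middle animals, where the slopes were -0.09 (adjusted p = 0.545), -0.37 (adjusted p = 0.0729), 0.09 (adjusted p = 0.216) and 0.05 (adjusted p = 0.764) in that order. By limma on the VST, a scale that compresses low levels, the 4 differences were -0.36, -0.49, 0.37 and 0.35, all past the test.

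The markers of the cells and fibres that a muscle sample can hold were tested list by list. Fast-fibre genes were higher in 4 of 12 (Myh4, Pvalb, Casq1 and Atp2a1, at 0.10 to 0.16) and lower in 0, against 3.21% and 3.49% of all genes, with calls lost in 6, 5, 18 and 22 settings in that order, and their summed level was 117726 to 190577 CPM (median 158443) in the low class and 125489 to 196960 (median 169018) in the high class. In the middle animals 7 of the 12 rose with Dbp, among them Myh4, Pvalb and Atp2a1, and 0 fell, against 3.93% and 5.83% of all genes there. Of 9 slow-fibre genes 0 passed. Macrophage genes were lower in 2 of 10 by the test, Lyz2 at -0.44 ± 0.10 (adjusted p = 0.00241) and Cd163 at -0.37 ± 0.08 (adjusted p = 6.70e-04), all 10 had differences below 0 in this fit, neither of the 2 was called in the middle animals, where 1 of the 10 fell and 0 rose, and the summed level was 80.3 to 301.5 CPM (median 122.5) in the low class against 44.8 to 220.8 (median 98.5) in the high class. In bulk tissue, fewer cells of a type and less RNA per cell cannot be told apart. Of the 9 adipocyte genes 0 passed, although their median difference was -0.31 and their summed level had medians of 1021 and 885 CPM in the low and high classes (ranges 522.4 to 1871 and 591.7 to 1528). Against 3.49% lower and 3.21% higher of all genes, Pdgfra and Dpt of the 8 fibro-adipogenic genes and Pecam1 of the 8 endothelial genes were lower, at -0.24, -0.17 and -0.14, and Pax7 of the 6 satellite cell genes was higher, at 0.33. Of these, Dpt lost its call in 24 of the 33 settings, Pax7 in 7 and Pecam1 in 4, and none of Pdgfra, Dpt, Pecam1 and Pax7 was called in the middle animals. Schwann cell, erythroid and brown fat genes gave 0 calls each, and Ucp1 of the last and Hba-a1 of the erythroid list were at 0 in at least 1 library of each class. With the scores of 5 of these lists in the model, 22 of the 72 named genes that had been called lost their calls. In this model 2.81% of genes were higher and 3.38% lower, and Arntl (-1.50), Per3 (1.64), Coq10b (1.11), Cdkn1a (-1.12), Pdk4 (-0.93), Angptl4 (-0.80) and Trim63 (-0.70) kept their calls, while Myh4 (0.10), Pvalb (0.13), Casq1 (0.097) and Atp2a1 (0.065) lost theirs. Lyz2 (-0.17) and Cd163 (-0.19) also lost theirs, but both belong to the macrophage list that was scored, and Cd68, Csf1r, Mrc1, C1qa, C1qb and C1qc of that list had differences above 0 in this model, from 0.0064 to 0.22.

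The difference between the classes was compared between the sexes and among the generations by interaction terms. With 25 libraries a class, 1.22% of genes were higher and 1.34% lower in females, and 0.326% and 0.38% in males, but such counts do not test a difference. The Dbp contrast itself also varied by group. In females of generation 19 the high and low medians were 36.5 and 1.53 CPM, and in males of generation 21 they were 24.6 and 3.57 CPM. The part of this variation in the counts was not tested. By the class-by-sex term 1 of 19246 genes passed (0.0052%), Gm10874, whose levels are described among the flagged results, and 764 had an unadjusted p under 0.05. By the class-by-generation term 0 passed (0%) with edgeR, where 1083 genes had an unadjusted p under 0.05, and 0 with limma on the VST, where 1042 had. Among the clock genes called the lowest adjusted p was 0.9998 for the class-by-sex term and 0.803 for the class-by-generation term. The Arntl difference, for example, was -1.75 ± 0.12 in females and -1.17 ± 0.13 in males, and that of Per3 was 1.87 ± 0.13 and 1.35 ± 0.11, a gap that was not significant after adjustment over all genes (unadjusted p = 0.00135 and 0.00289).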

How the data were processed

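Skeletal muscle RNA (gastrocnemius, per the study's methods) of 474 Diversity Outbred mice was measured by RNA-seq, 1 library an animal. Both reads of a pair were aligned as single reads to a transcriptome of the 8 founder strains and quantified with EMASE in GBRS, so totals count read ends. The authors deposited estimated counts per gene (expected counts, 68.6% of them whole within 1e-06) and a variance-stabilised matrix, used here as a log2-like score that compresses low levels and made by the authors with DESeq2 (software versions not given in the sources used here), on GRCm38. The study's methods also describe a filter on low transcripts and the removal of batch effects, and whether the deposited VST holds the latter was not stated. Whether counting used strand was not stated. Of the generation numbers, 17 and 23 are in the titles and not in the methods.

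Expected counts were rounded to whole numbers. Groups were sex by generation number, and in each the 5 highest and 5 lowest libraries by Dbp VST were taken, which left 374 middle libraries. Of the genes called, 618 were higher and 671 lower in Dbp-high animals. Genes with low counts were removed by filterByExpr (minimum count 10), which kept 19247 of 20612 and left 19246 tested besides Dbp. The main test was edgeR 4.0.16 (R 4.3.3), quasi-likelihood, TMM scaling (factors 0.871 to 1.29), group and class in the model, Benjamini-Hochberg adjustment over all genes at 0.05. A prior count of 2 was used for log2 CPM values only. The same tool gave the slope on Dbp in 374 libraries and the interactions. limma 3.58.1 on the VST and DESeq2 1.42.0 were alternatives. Depth was compared by 100000 permutations within groups. No libraries were excluded. Each animal gave 1 library, so p-values measure the spread between animals. The script was tested on simulated data.

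The members and gene lists were chosen with earlier results of these data known. Named genes were all clock genes, the 10 largest changes in each direction (adjusted p under 0.05, a mean of at least 1 CPM in a class, same sign in at least 9 of 10 groups, and no provisional Gm, Rik or -ps symbol), the 5 genes most and least like Dbp in the 374 libraries and up to 4 called genes of each list. A few genes that the rule names are not reported here. Other members of a list were named after their values were seen. Leaving out single libraries of 1 group was added after seeing the data.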

Additional observations from a re-analysis of the deposited data

Results flagged for a closer look

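The only result marked for a closer look is the difference between the sexes in the high-low contrast, which passed for 1 gene of 19246, Gm10874 (edgeR quasi-likelihood interaction, log2 male minus female -8.83 ± 1.64, adjusted p = 0.0102), and for 0 genes by limma on the VST, where 842 genes had an unadjusted p under 0.05. Its counts were either at most 52 or at least 1051. Counts over 1000 were found in 5 of 25 high and 4 of 25 low females, and in 0 of 25 high and 5 of 25 low males. They were also found in 14.1% of the females and 15.9% of the males of neither class. The fitted term thus rests on the few class libraries over 1000, and whether the split goes with inherited variation was not tested.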

How the results depend on the processing

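Of the settings tried, these moved a share of genes by over 1.5 times. Genes higher in Dbp-high animals (3.21% of those tested) became 1.68% with total count alone, 2.08% with 3 animals a tail, 6.03% with 10, 1.22% in females and 0.326% in males, 0.139%, 0.140%, 0.0217%, 0.0326% and 0.0389% in library blocks 1 to 5 alone, and 1.72% to 3.38% when a group or a library was left out. Genes lower (3.49%) became 8.20% with 10 animals a tail, 1.34% in females and 0.38% in males, 0.122%, 0.0753%, 0.0379%, 0.0163% and 0.0944% in the blocks, and 2.08% to 3.58% when a group or a library was left out. The lowest shares of both came without the females of generation 19. Genes rising with Dbp in the middle libraries (3.93%) became 2.42% with total count alone and 5.98% with Dbp as log2 CPM. The 1 gene whose difference depended on sex became 0 by limma on the VST. Fits on 1 sex or block hold fewer samples, and the cause of the other moves was not tested. Among the 72 named genes that were called, signs turned only within single blocks: Csnk1e (-0.0018 in block 3, -0.0013 in block 4), Col9a1 (-0.31 in block 5), Ucp3 (0.12 in block 3), Pygm (-0.077 in block 5), Hsph1 (0.10 in block 3, 0.13 in block 5), Myh4 (-0.030 in block 5), Atp2a1 (-0.014 in block 4, -0.0083 in block 5), Pecam1 (0.025 in block 5) and Sqstm1 (-0.0021 in block 5). Named genes that were not called changed sign in other settings too, such as Cd68 (0.22 with the cell-type scores added). Of the 20 clock genes called, 18 kept their call in all 33 settings other than single sexes and blocks. No paired analysis was possible because each animal gave 1 library and the replicate numbers only name samples.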
